A study of Homo sapiens with 16 samples.

Results

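Genes of mitochondrial protein import, mitochondrial chaperones and mitochondrial proteases were examined in the RNA of 2 established human multiple myeloma cell lines after repression of KANSL2. Members were chosen by name: every symbol beginning with TOMM or TIMM and a digit, plus HSPD1, HSPE1, HSPA9, TRAP1, GRPEL1, LONP1, CLPP, CLPX, PMPCA, PMPCB, AFG3L2 and YME1L1. The rule found 38 genes among the 28277 symbols of each line's table, and no pseudogene symbol among them. INA6 is a plasma cell line that needs interleukin 6 to grow, and JJN3 grows without it. Each line had 3 untreated libraries with a KANSL2 knockdown and 3 untreated libraries with a nontargeting sgRNA, so n = 3 for every group below. All 12 carried the interference system, which the labels spell CRISPR-dCas9-CRAB, a Cas9 without cutting activity joined to a repressor. The guides, whether the cells were clones or pools, and the time from transduction to RNA extraction are not stated. Nothing in the labels tells whether the replicates came from different cultures. The p-values therefore cover library-to-library spread, and that may be technical. Another 4 JJN3 libraries for chromatin accessibility, 2 control and 2 knockdown, were not analysed here.

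Nearly all mitochondrial proteins are made in the cytosol and imported. The TOM complex is the entry pore of the outer membrane. Proteins with a cleavable presequence then pass through the TIM23 complex of the inner membrane and are pulled into the matrix by the chaperone HSPA9, while carrier proteins are escorted by small TIM chaperones to the TIM22 complex. In the matrix the presequence is cut off, the chaperonin HSPD1 and its lid HSPE1 fold the protein, and ATP-dependent proteases remove what fails to fold. Antibody-secreting plasma cells are known for a high load of protein synthesis and folding.

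Promoter sequences are shown for the matrix chaperone genes HSPE1, HSPD1 and HSPA9, which rose in both lines, and for TIMM10 and TIMM9, partners of which only TIMM10 was called. These genes were picked for display after their values were seen. HSPD1 and HSPE1 lie head to head on chromosome 2, and their RefSeq start sites are 105 bases apart. They therefore share promoter sequence. Each window runs from 250 bases before a start site to 50 bases after it, 5′ to 3′ on the gene's strand, from RefSeq on GRCh38.p14. The windows are chr2:197500129-197500428 on the plus strand for HSPE1, chr2:197499791-197500090 on the minus strand for a downstream HSPD1 start, and chr5:138575352-138575651 on the minus strand for HSPA9. Those of TIMM10 and TIMM9 are chr11:57530705-57531004 and chr14:58427482-58427781, both on the minus strand. Capitals mark CACGTG, the E-box that MYC can bind, and cores of the heat shock element, TTCNNGAA or GAANNTTC, searched on both strands. The 3 cores in HSPD1 overlap each other, and their capitals run together.
HSPE1: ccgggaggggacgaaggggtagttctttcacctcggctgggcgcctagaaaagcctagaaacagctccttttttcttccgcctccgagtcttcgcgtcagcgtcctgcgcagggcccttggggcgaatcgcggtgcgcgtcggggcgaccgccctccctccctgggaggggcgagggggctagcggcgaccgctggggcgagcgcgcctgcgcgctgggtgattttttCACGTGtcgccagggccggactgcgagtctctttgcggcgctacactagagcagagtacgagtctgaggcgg
HSPD1: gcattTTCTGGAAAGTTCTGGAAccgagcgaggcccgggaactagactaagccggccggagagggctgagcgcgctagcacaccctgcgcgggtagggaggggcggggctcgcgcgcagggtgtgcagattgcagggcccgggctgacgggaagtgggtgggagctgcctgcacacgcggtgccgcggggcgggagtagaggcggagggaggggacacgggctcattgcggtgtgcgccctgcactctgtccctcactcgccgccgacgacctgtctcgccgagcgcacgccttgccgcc
HSPA9: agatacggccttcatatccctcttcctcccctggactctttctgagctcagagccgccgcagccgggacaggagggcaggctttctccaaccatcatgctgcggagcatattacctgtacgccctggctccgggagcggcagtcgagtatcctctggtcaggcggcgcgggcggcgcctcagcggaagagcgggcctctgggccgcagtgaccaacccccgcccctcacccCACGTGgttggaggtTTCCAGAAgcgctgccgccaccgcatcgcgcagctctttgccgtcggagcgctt
TIMM10: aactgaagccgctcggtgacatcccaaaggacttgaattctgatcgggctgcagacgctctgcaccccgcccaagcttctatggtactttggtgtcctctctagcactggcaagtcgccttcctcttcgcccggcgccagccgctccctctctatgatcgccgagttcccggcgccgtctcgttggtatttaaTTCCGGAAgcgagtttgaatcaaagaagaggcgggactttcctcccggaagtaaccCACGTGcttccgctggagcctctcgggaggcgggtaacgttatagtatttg
TIMM9: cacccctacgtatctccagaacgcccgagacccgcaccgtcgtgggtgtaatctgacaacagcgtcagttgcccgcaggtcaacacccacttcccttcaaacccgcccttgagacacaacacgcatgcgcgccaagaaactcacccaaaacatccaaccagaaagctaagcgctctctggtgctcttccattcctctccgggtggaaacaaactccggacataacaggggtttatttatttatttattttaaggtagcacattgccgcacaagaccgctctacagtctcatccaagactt

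The HSPE1 window holds 1 E-box, from 197500357 to 197500362, and the upstream HSPD1 window, which overlaps it by 204 bases, holds the same one. The downstream HSPD1 window holds 3 overlapping heat shock cores. HSPA9 and TIMM10 each hold an E-box and a heat shock core, and the TIMM9 window holds neither. Of the 38 members, 33 have a promoter entry; TOMM5, TIMM8B, GRPEL1, CLPP and YME1L1 do not. CACGTG occurred in 7 of these 33 (21.2%), namely TOMM20, TIMM8A, TIMM10, HSPA9, HSPD1, HSPE1 and LONP1, and in 10.9% of 15843 protein-coding genes with a window. TTCNNGAA occurred in 4 members (12.1%; 8.84% of protein-coding genes), and CCGGAAGT, an ETS element that GABP can bind, in 6 (18.2%; 6.97%). The last were TOMM20, TOMM70, TOMM6, TIMM10, TIMM10B and TIMM29. The core of the NRF1 element was found in LONP1 alone (3.03%; 1.99%) and TGATGCAA, which C/EBP and ATF factors can bind, in TIMM22 and PMPCB (6.06%; 0.903%). Mitochondrial stress element 1 was found in TOMM70 (3.03%; 8.56%), and GAANNTTC in HSPD1 (3.03%; 7.38%). AAGATGGC, the core of the YY1 element, occurred in TOMM40L, TIMM50 and PMPCA (9.09%; 4.66%), and the CCAAT box in 10 members (30.3%; 42.1%). These were the 9 motifs searched. A match is a run of letters, not a shown binding site.

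KANSL2 itself was lower in every knockdown library. Values are regularised log (rlog) expression on the log2 scale, and differences are knockdown minus control. In INA6 the controls stood at 8.06, 8.02 and 8.16 and the knockdown libraries at 7.71, 7.60 and 7.76, a difference of −0.39 (SE 0.0625). In JJN3 they stood at 7.25, 7.24 and 7.19 against 6.00, 5.98 and 6.06, a difference of −1.21 (SE 0.0559). All 9 plasma cell markers examined had a mean above the minimum of 3 in both lines, and of the 6 stromal markers none did. Of 6 B cell markers 3 did in INA6 and 2 in JJN3, of 6 T and NK cell markers 3 and 1, and of 6 myeloid markers 1 and 1. The highest T and NK cell marker was CD8A in INA6 (control mean 5.89) and CD3E in JJN3 (5.38), and the myeloid marker CD14 stood at 6.11 in the JJN3 controls. The B cell marker MS4A1 rose by 0.64 in JJN3 and is listed at 0 in INA6. Plasma cell markers changed too. In INA6 JCHAIN (−0.89), PRDM1 (−0.72), SLAMF7 (−0.71), TNFRSF17 (−0.56), MZB1 (−0.44) and XBP1 (−0.12) fell, and IRF4 (0.29) and CD38 (0.25) rose. In JJN3 TNFRSF17 (0.58), IRF4 (0.45), CD38 (0.45), PRDM1 (0.28) and SLAMF7 (0.20) rose, and SDC1 (−0.50) fell. SDC1 in INA6 and XBP1, JCHAIN and MZB1 in JJN3 did not reach an adjusted p below 0.05. The part of these cell type markers in the results was not tested. Within a group, the lowest correlation between libraries was 0.999. Differences in level between genes keep this high, so it cannot show whether a library stood apart. On principal component 2, an axis of shared variation, knockdown replicates 1 and 3 lay far apart in both lines. Their scores were 0.65 and −0.63 in INA6, and 0.72 and −0.68 in JJN3. This component held 8.82% of the variation in INA6 and 7.33% in JJN3. Without counts in the tables, sequencing depth is unknown. A change is relative to the rest of its library, and in bulk RNA fewer cells with a transcript and less of it per cell cannot be told apart.

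Most of the import, chaperone and protease genes were higher after KANSL2 knockdown in both lines. In INA6, 26 of 36 tested members rose and none fell (limma, adjusted p below 0.05 over all genes), while 48.6% of the 12511 genes tested changed, 24.7% rising and 24.0% falling. In JJN3, 21 of 35 rose and 3 fell, against 51.0% changing among 12282 genes, 25.5% rising and 25.5% falling. The median difference of the members was 0.26 in INA6 and 0.15 in JJN3, and over all tested genes it was 0.001 in each line. With the trend of change with expression level over all genes removed, the members' medians were 0.22 and 0.13. The members' changes were small. They ran from −0.04 to 0.63 in INA6 (standard errors 0.0405 to 0.0675) and from −0.21 to 0.36 in JJN3 (0.0392 to 0.0602). All 3 knockdown libraries lay above all 3 controls for 29 members in INA6 (27.7% of all genes) and for 22 in JJN3 (28.4%), and below them for 0 and 2 (27.4% and 27.7%). Of the 35 members tested in both lines, 20 rose in both and 0 fell in both; the shares over 11137 genes were 14.2% and 12.3%.

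**Figure D1:**
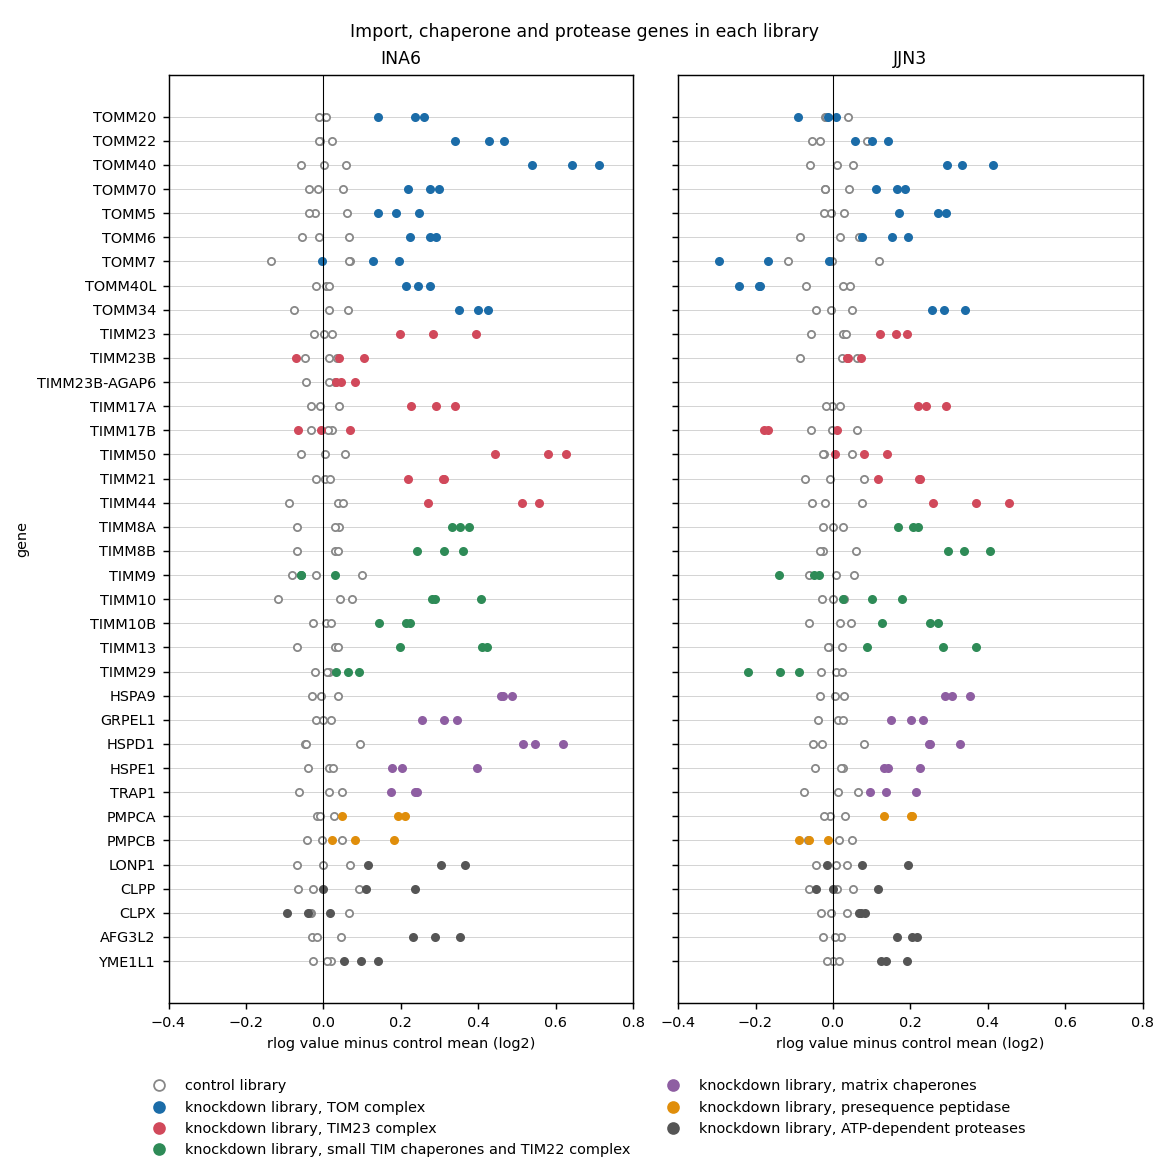
Each row is a member and each point a library, as the rlog value minus the mean of the 3 controls of its line (log2); open points are controls and filled points knockdown libraries, coloured by role. In INA6 the filled points of 29 members lie wholly to the right of the open points, and in JJN3 those of 22 do, while TOMM40L and TIMM29 lie to the left in JJN3.

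Members with values too low to test were TIMM22 and TOMM20L in both lines and TIMM23B-AGAP6 in JJN3. TIMM22, the channel subunit of the TIM22 complex, is listed at exactly 0 in all 12 libraries. Its overlapping neighbour ABR is also listed at 0 in INA6 and has a mean of 8.46 in JJN3. Such a 0 is no evidence of silence. TOMM20L, a paralogue of TOMM20, had values of 1.68 to 1.76 in INA6 and of −0.31 to −0.29 in JJN3. TIMM23B-AGAP6, a readthrough transcript annotated as noncoding, lay between 2.19 and 2.29 in JJN3. In INA6, where it is counted by its name with the TIM23 genes, its difference was 0.05 (adjusted p = 0.286).

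The counts by role are to be read against the shares of all tested genes. These were 24.7% rising and 24.0% falling in INA6, and 25.5% and 25.5% in JJN3. Of 9 tested TOM genes, 8 rose and none fell in INA6, and 5 rose and 2 fell in JJN3. The pore subunit TOMM40 had the largest rise of these in both lines. In INA6 the TOMM40 controls held 10.89, 10.83 and 10.77 and the knockdown libraries 11.37, 11.47 and 11.54. In JJN3 the same gene went from 10.70, 10.64 and 10.75 to 10.99, 11.03 and 11.11. The groups were separate in both lines. The rise was 0.63 in INA6 (SE 0.0485, adjusted p = 2.14e-09), or 54.8% on the linear scale, and 0.35 in JJN3 (SE 0.0428, adjusted p = 7.99e-08), or 27.2%. TOMM34, a cytosolic co-chaperone that is counted here by its name and is not part of the pore, rose by 0.39 in INA6 and 0.29 in JJN3. Its INA6 values were 9.85, 9.71 and 9.80 against 10.19, 10.14 and 10.21, and its JJN3 values 10.22, 10.25 and 10.31 against 10.54, 10.51 and 10.60, without overlap in either line.

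All 3 receptors of the TOM complex rose in INA6, and TOMM70 alone of them was called in JJN3. TOMM22, the central receptor, stood at 9.72, 9.70 and 9.69 in the INA6 controls and at 10.13, 10.17 and 10.04 after knockdown, a rise of 0.41 (SE 0.0478, adjusted p = 5.91e-07). In JJN3 its groups overlapped, with 9.71, 9.69 and 9.83 against 9.81, 9.89 and 9.85. The JJN3 difference of 0.10 was not called (adjusted p = 0.0698). It was called with library medians centred, without control replicate 3 and without knockdown replicate 1 (lowest adjusted p = 0.0183). TOMM20, the receptor for presequences, rose by 0.21 in INA6 (adjusted p = 0.000239), a value of 0.11 once the trend of change with expression level was removed, and was at −0.03 in JJN3 (adjusted p = 0.529). In JJN3 it was called lower with quantile normalisation and with the level trend removed, down to −0.14. TOMM70, the receptor for carrier precursors, rose by 0.26 and 0.15. In JJN3 TOMM70 missed the threshold after quantile normalisation (0.06, adjusted p = 0.226) or removal of the level trend (0.06, 0.213), in a range of adjusted p over the alternatives of 0.000501 to 0.226.

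The small TOM subunits, which assemble and stabilise the pore, were TOMM5, TOMM6 and TOMM7. TOMM5 rose by 0.19 in INA6 (9.88, 9.79 and 9.78 against 9.96, 10.06 and 10.00) and by 0.24 in JJN3 (9.48, 9.45 and 9.43 against 9.62, 9.72 and 9.74), with separate groups in both. TOMM6 rose by 0.26 in INA6 and by 0.14 in JJN3. In JJN3 TOMM6 missed it after quantile normalisation (0.04, adjusted p = 0.436), after removal of the level trend (0.05, 0.347) and without control replicate 1 (0.10, 0.114), the range being 0.00277 to 0.436.

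In contrast to the pore subunit TOMM40, 2 TOM genes fell in JJN3. TOMM40L, a paralogue of TOMM40, went from 8.94, 8.84 and 8.96 to 8.72, 8.67 and 8.72, a fall with separate groups (−0.21, SE 0.0486, adjusted p = 0.000705). In INA6 it moved the other way, from 8.81, 8.84 and 8.84 to 9.07, 9.04 and 9.10 (0.24, SE 0.0503, adjusted p = 0.000418). It was the only member called in opposite directions, which 3.91% of all genes were. TOMM40L overlaps NR1I3, at 0.08 in INA6 (adjusted p = 0.27) and −0.09 in JJN3 (adjusted p = 0.0296), and their reads may not be separable, as use of strand in counting is not stated. TOMM7 fell by 0.16 in JJN3 (adjusted p = 0.0295) with overlapping groups, 8.97, 9.09 and 8.86 against 8.68, 8.80 and 8.96. In INA6 TOMM7 held 8.48, 8.48 and 8.28 against 8.41, 8.61 and 8.54, a difference of 0.11 (adjusted p = 0.185). Without INA6 knockdown replicate 1 it was 0.16 and called (adjusted p = 0.0444; range 0.0444 to 0.68). The JJN3 call of TOMM7 was lost under 6 of 13 alternatives, with adjusted p from 0.00203 to 0.239, among them the leaving out of control replicate 2 (−0.10, 0.239), knockdown replicate 1 (−0.09, 0.195) and knockdown replicate 2 (−0.15, 0.0789).

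Of the TIM23 complex, 5 of 8 tested genes rose in INA6 and 4 of 7 in JJN3, and none fell. TIMM50, which receives presequences in the intermembrane space, went from 9.06, 9.11 and 9.00 to 9.50, 9.68 and 9.64 in INA6 (0.55, SE 0.0549, adjusted p = 7.66e-08). In JJN3 its groups overlapped, 9.01, 9.00 and 9.08 against 9.03, 9.17 and 9.11, with a difference of 0.07 (95% interval −0.02 to 0.17, adjusted p = 0.2). TIMM44, which tethers HSPA9 to the channel, rose in INA6 from 9.71, 9.72 and 9.59 to 9.94, 10.19 and 10.23 (0.45, SE 0.062) and in JJN3 from 9.20, 9.16 and 9.29 to 9.47, 9.58 and 9.67 (0.36, SE 0.0503). Knockdown replicate 1 was the lowest of the 3 knockdown libraries for TIMM44 in both lines.

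TIMM23 and TIMM17A form the channel. TIMM17A, 9.88, 9.81 and 9.83 in the INA6 controls, stood at 10.13, 10.18 and 10.06 after knockdown (0.29, adjusted p = 4.49e-05). In JJN3 the TIMM17A values were 9.09, 9.07 and 9.05 against 9.36, 9.31 and 9.29 (0.25, adjusted p = 3.41e-05). Its paralogue TIMM17B, which can take the same place in the complex, was at −0.001 in INA6 (95% interval −0.11 to 0.11) and −0.11 in JJN3 (−0.23 to 0.01). Without JJN3 knockdown replicate 3 the latter was −0.17, a called fall (adjusted p = 0.0174; range 0.0174 to 0.353). TIMM17B overlaps PQBP1, which rose by 0.28 in INA6 and 0.27 in JJN3. TIMM21, which links TIM23 to the respiratory chain, rose by 0.28 (9.13, 9.16 and 9.17 against 9.37, 9.46 and 9.46) and by 0.19 (9.09, 9.02 and 9.17 against 9.32, 9.32 and 9.21). TIMM23, the channel itself, rose by 0.29 and 0.16, the latter not without JJN3 control replicate 3 (0.13, adjusted p = 0.0637; range 0.00332 to 0.0637). Its near-identical copy TIMM23B was at 0.02 and 0.05 (adjusted p = 0.757 and 0.439), and the treatment of reads that fit both copies is not stated.

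Of 7 tested small TIM and TIM22 genes, 5 rose and none fell in INA6, and 4 rose and 1 fell in JJN3. TIMM8A and TIMM13 form 1 hexameric chaperone of the intermembrane space. TIMM8A went from 8.30, 8.41 and 8.40 to 8.72, 8.75 and 8.70 in INA6 (0.35, adjusted p = 1.83e-05) and from 7.79, 7.76 and 7.81 to 7.95, 7.99 and 8.00 in JJN3 (0.20, adjusted p = 0.00224). TIMM13 went from 10.93, 10.94 and 10.83 to 11.10, 11.31 and 11.32 (0.34) and from 10.24, 10.27 and 10.24 to 10.34, 10.53 and 10.62 (0.25), again with knockdown replicate 1 lowest. TIMM13 overlaps TMPRSS9, at 0.27 and 0.15. The groups of both genes were separate in both lines. TIMM8B, a paralogue of TIMM8A, stood at 10.15, 10.15 and 10.05 against 10.36, 10.48 and 10.43 in INA6 (0.30). In JJN3 it stood at 9.88, 9.87 and 9.97 against 10.24, 10.20 and 10.31 (0.35, adjusted p = 1.42e-07), the smallest p among these chaperones. TIMM10B, which docks the carrier chaperones at TIM22, rose by 0.19 (9.40, 9.43 and 9.45 against 9.64, 9.65 and 9.57) and by 0.22 (8.99, 9.07 and 9.10 against 9.32, 9.30 and 9.18).

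TIMM9 and TIMM10 form the other hexamer, the main carrier chaperone, and only TIMM10 was called, in INA6. TIMM10 rose there by 0.32 (7.97, 8.00 and 7.81 against 8.21, 8.33 and 8.21, adjusted p = 0.000231). TIMM9 was at −0.03 with 8.28, 8.10 and 8.16 against 8.21, 8.12 and 8.12 (95% interval −0.15 to 0.10). In JJN3 TIMM10 was at 0.10 (adjusted p = 0.142) and TIMM9 at −0.07 (adjusted p = 0.283). TIMM10 was called in JJN3 with quantile normalisation and with the level trend removed, with 0.0138 as the lowest adjusted p of its alternatives. TIMM9 overlaps KIAA0586, which was at −0.15 in INA6 (adjusted p = 0.0979).

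TIMM29, which holds the TIM22 complex together, fell in JJN3. Its values there were 8.97, 8.94 and 8.99 in the controls and 8.75, 8.83 and 8.88 after knockdown, with every knockdown library below every control (−0.15, adjusted p = 0.0116). The call was lost without knockdown replicate 1 (−0.11, adjusted p = 0.0607; range 0.00472 to 0.0607). In INA6 TIMM29 held 9.16, 9.13 and 9.16 against 9.18, 9.21 and 9.24, a difference of 0.06 that was not called (adjusted p = 0.312).

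The matrix chaperones were the role in which every member rose in both lines, 5 of 5. HSPA9, the mitochondrial Hsp70, went from 11.50, 11.47 and 11.54 to 11.97, 11.99 and 11.96 in INA6 (0.47, SE 0.0405, adjusted p = 1.13e-08). In JJN3 it went from 11.30, 11.34 and 11.36 to 11.69, 11.64 and 11.62 (0.32, SE 0.0392, adjusted p = 8.34e-08). GRPEL1, its nucleotide exchange factor, rose by 0.30 (10.36, 10.38 and 10.40 against 10.64, 10.73 and 10.70) and by 0.19 (9.56, 9.62 and 9.63 against 9.83, 9.75 and 9.80). For both genes the groups were far apart against the spread within them.

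HSPD1, the chaperonin, had the largest rise of this role in INA6. Its values there were 11.05, 11.05 and 11.19 against 11.64, 11.71 and 11.61 (0.56, SE 0.0468, adjusted p = 6.89e-09), a level 47.4% above the controls. In JJN3 they were 10.82, 10.85 and 10.95 against 11.20, 11.12 and 11.12 (0.28, SE 0.0426, adjusted p = 3.37e-06), which was 0.18 with the level trend removed. HSPE1, the gene across the shared promoter, rose by 0.26 in INA6 (6.73, 6.78 and 6.79 against 6.97, 7.16 and 6.94, adjusted p = 0.00325). In JJN3 it rose by 0.17 (6.70, 6.63 and 6.69 against 6.90, 6.81 and 6.82, adjusted p = 0.0148), and this call was lost without control replicate 2 (0.14, 0.0684) or knockdown replicate 1 (0.14, 0.071; range 0.00106 to 0.071). RefSeq lists 22 pseudogenes named after HSPD1 and 28 named after HSPE1, so reads of these genes may have been lost or shared in counting. The same limit holds for all 16 members with pseudogenes named after them. Among these are TOMM22 with 6, TOMM40 and TOMM20 with 4 each, GRPEL1 and TIMM9 with 3 each, and HSPA9 with 2. HSPE1 also overlaps the gene HSPE1-MOB4, which is listed at 0 in both lines. How reads that fit both of these were counted is not stated. TRAP1, the mitochondrial Hsp90, rose by 0.22 (9.41, 9.29 and 9.37 against 9.60, 9.53 and 9.59) and by 0.15 (8.75, 8.84 and 8.89 against 8.96, 8.92 and 9.04). The call of TRAP1 in JJN3 was lost without control replicate 1 (0.11, adjusted p = 0.111) or knockdown replicate 3 (0.12, 0.0695; range 0.00434 to 0.111). TRAP1 overlaps DNASE1, which rose by 0.74 and 0.19.

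Of the 2 subunits of the peptidase that removes presequences, PMPCA rose and PMPCB was not called. PMPCA went from 10.13, 10.09 and 10.09 to 10.15, 10.30 and 10.31 in INA6 (0.15, adjusted p = 0.0157) and from 9.96, 9.94 and 10.00 to 10.10, 10.17 and 10.17 in JJN3 (0.18, adjusted p = 0.000839). Its INA6 call was lost under 5 of 13 alternatives, with adjusted p from 0.00082 to 0.144. These were quantile normalisation (0.10), removal of the level trend (0.09, adjusted p = 0.144) and the leaving out of control replicate 2 (0.14, 0.0645), knockdown replicate 2 (0.13, 0.0847) or knockdown replicate 3 (0.12, 0.0562). In JJN3 the rise of PMPCA was 0.11 with the level trend removed. PMPCB, the catalytic subunit, held 7.77, 7.68 and 7.72 against 7.90, 7.74 and 7.80 in INA6 and 6.59, 6.51 and 6.63 against 6.57, 6.52 and 6.49 in JJN3, overlapping in both lines. It overlaps DNAJC2 and PSMC2, which rose by 0.42 and 0.29 in INA6 and by 0.15 and 0.20 in JJN3.

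Of the 5 genes of ATP-dependent proteases, 2 rose in each line and none fell. Among all tested genes 48.6% were called in INA6 and 51.0% in JJN3, so the number of proteases called was near the background. AFG3L2, of the inner membrane protease that faces the matrix, rose in both lines: 9.24, 9.26 and 9.32 against 9.62, 9.50 and 9.56 in INA6 (0.29, adjusted p = 7.32e-05) and 9.18, 9.23 and 9.21 against 9.41, 9.42 and 9.37 in JJN3 (0.20, adjusted p = 0.000548). LONP1, the main matrix protease, rose in INA6 from 10.48, 10.41 and 10.34 to 10.52, 10.71 and 10.78 (0.26, adjusted p = 0.000636), with knockdown replicate 1 only just above the highest control. In JJN3 LONP1 overlapped, 9.92, 10.00 and 9.97 against 9.95, 10.04 and 10.16 (0.08, adjusted p = 0.141), and it was called without knockdown replicate 1 (0.13, adjusted p = 0.0138; range 0.0138 to 0.811). LONP1 overlaps RPL36, which rose by 0.47 in INA6 and 0.17 in JJN3.

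YME1L1, the inner membrane protease that faces the intermembrane space, rose in JJN3, where it held 9.58, 9.60 and 9.57 against 9.77, 9.72 and 9.71 (0.15, adjusted p = 0.0046). Quantile normalisation (0.10, 0.063) or removal of the level trend (0.10, 0.0636) ended this call (range 0.00107 to 0.0636). The difference of YME1L1 in INA6 was 0.10 (adjusted p = 0.0753), with 10.58, 10.53 and 10.57 against 10.70, 10.66 and 10.61. It was called with library medians centred (0.13, adjusted p = 0.0163) and without INA6 knockdown replicate 3 (0.12, 0.0356), in a range of 0.0163 to 0.719. The 2 parts of the ClpXP protease were not called in either line. CLPP, the peptidase, was at 0.12 in INA6 (9.07, 8.95 and 8.91 against 8.98, 9.22 and 9.09, adjusted p = 0.122) and 0.02 in JJN3 (8.85, 8.96 and 8.92 against 8.91, 8.86 and 9.02, adjusted p = 0.715). In INA6 CLPP was called with library medians centred (0.15, adjusted p = 0.0422) and without knockdown replicate 1 (0.17, 0.0173; range 0.0173 to 0.531). CLPX, its unfoldase, was at −0.04 and 0.07 (adjusted p = 0.549 and 0.15).

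Partners and paralogues were then compared within each library, as the log2 ratio of their values, which no scaling of a library can move. Rlog values understate changes of low genes, however, and a ratio does not remove this. The limit bears on pairs with a low gene, such as HSPE1 (INA6 control mean 6.77) or TIMM23B (5.21). Its part in the ratios was not tested. The 10 pairs were chosen for their known partnership or shared ancestry after the members' changes had been seen, so the ratios are a description and carry no test. TOMM40 gained on TOMM40L in both lines: the ratio went from 2.08, 1.99 and 1.93 to 2.29, 2.43 and 2.44 in INA6 and from 1.77, 1.79 and 1.79 to 2.27, 2.36 and 2.39 in JJN3. TIMM17A gained on TIMM17B by 0.29 in INA6 and 0.36 in JJN3, and TIMM10 on TIMM9 by 0.35 and 0.18, with no overlap in either line. HSPD1 gained on HSPE1 by 0.30 and 0.11, and HSPA9 on GRPEL1 by 0.17 and 0.12, also without overlap.

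TIMM8A and TIMM13, the partners of 1 hexamer, kept overlapping ratios, with changes of 0.01 in INA6 and −0.05 in JJN3. TIMM8A against TIMM8B overlapped in INA6 (0.05), and in JJN3 all 3 knockdown libraries lay below the controls (−0.15). TIMM23 gained on TIMM23B by 0.27 in INA6 without overlap, and by 0.11 in JJN3 with overlap. PMPCA gained on PMPCB by 0.23 in JJN3 without overlap, and by 0.06 in INA6 with overlap. CLPP against CLPX overlapped in both lines, at 0.15 and −0.05.

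**Figure D2:**
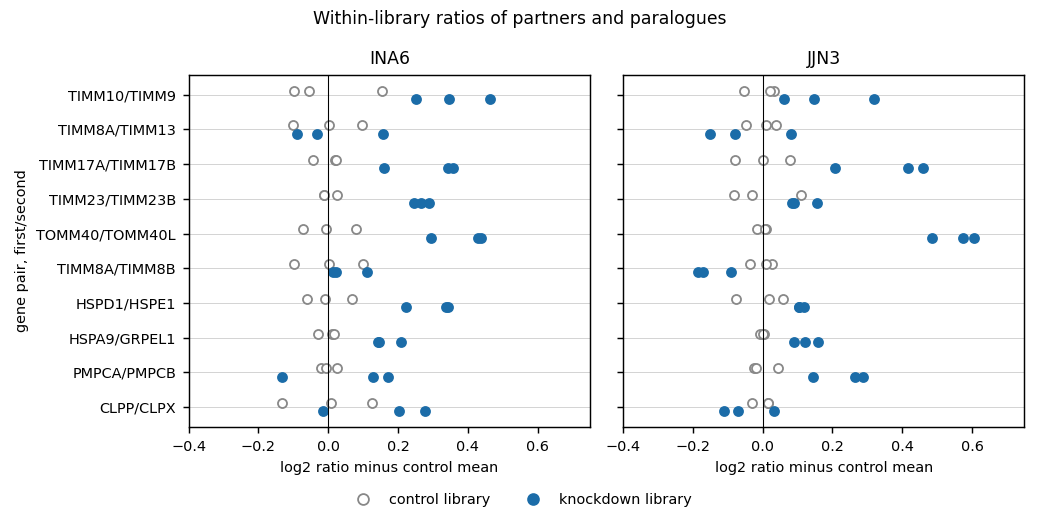
The log2 ratio of 2 genes in each library, minus its mean over the 3 controls of the line; open points are controls, filled points knockdown libraries. For TOMM40/TOMM40L, TIMM17A/TIMM17B, TIMM10/TIMM9, HSPD1/HSPE1 and HSPA9/GRPEL1 the filled points lie to the right of the open points in both lines, and for TIMM8A/TIMM13 they mix with them.

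The changes of the 2 lines were compared as differences of the within-line differences, since the tables were normalised separately and levels cannot be set side by side. A difference between lines was called for 10 of 35 members, where 30.0% of 11137 genes were called, so the share of members was near that of all genes. In all 10 the INA6 change was the more positive, as it was for 15.6% of all genes, and for 0 members the JJN3 change was, as it was for 14.4%. KANSL2 itself was at −0.39 in INA6 and −1.21 in JJN3. Called under all 19 alternatives were the differences of TIMM50 at 0.47 (adjusted p = 9.9e-07), TOMM40L at 0.45 (adjusted p = 1.12e-06), TOMM22 at 0.31 (0.000229), HSPD1 at 0.29 (0.000394), TOMM40 at 0.28 (0.000566) and TOMM20 at 0.24 (0.000797). The differences of TOMM7 (0.26, adjusted p = 0.0194), TIMM10 (0.22, 0.04), TIMM29 (0.21, 0.0167) and HSPA9 (0.15, 0.0353) were lost under 4, 8, 1 and 9 of the 19, with adjusted p up to 0.104, 0.169, 0.0516 and 0.102. TIMM29 was lost without JJN3 knockdown replicate 1 alone (0.17, adjusted p = 0.0516).

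**Figure D3:**
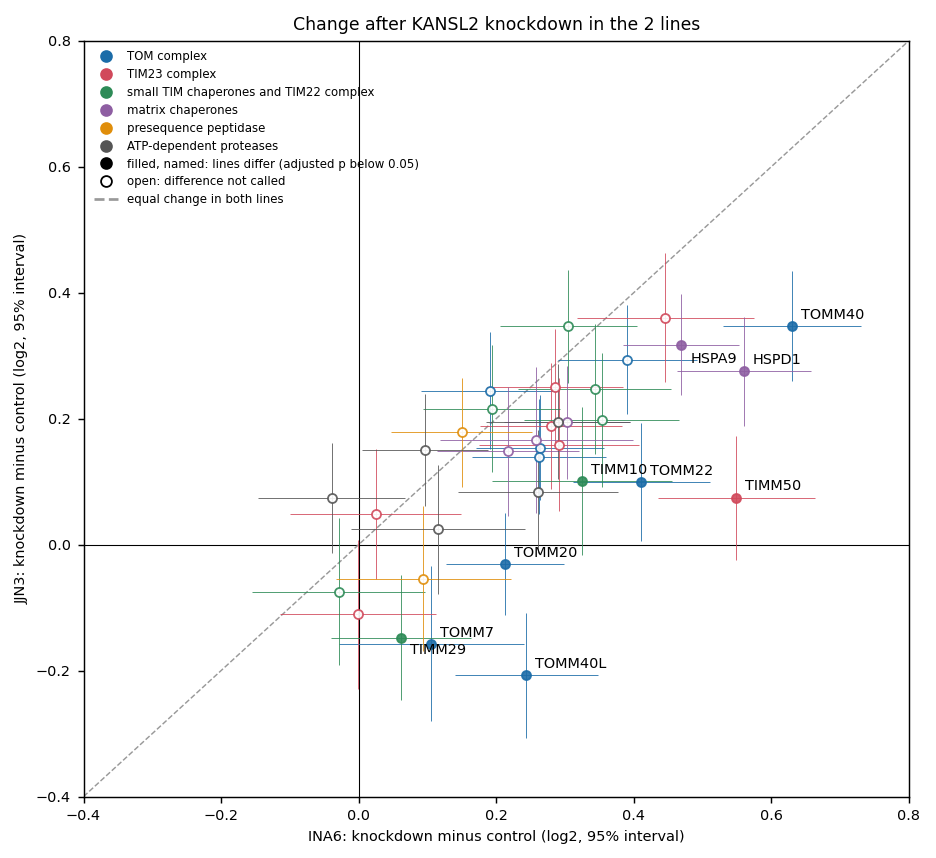
Change after knockdown in INA6 (horizontal) and JJN3 (vertical) for the 35 members tested in both lines, knockdown minus control in log2 with 95% intervals; filled, named points are the 10 members whose changes differed between lines. All 10 lie below the dashed line of equal change, and TOMM40L lies above 0 in INA6 and below 0 in JJN3.

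Genes of the same pathway outside the naming rule were taken from lists by role. Up to 3 per list are named, by smallest adjusted p. A list gene given for 1 line alone was not called in the other. Their counts stand beside 24.7% of all tested genes rising and 24.0% falling in INA6, and 25.5% and 25.5% in JJN3. The cytosolic chaperones that hand precursors to the TOM receptors rose in both lines, 7 of 9 in each with none falling, and with medians of 0.45 in INA6 and 0.38 in JJN3. DNAJA1, an Hsp70 co-chaperone, rose by 0.60 and 0.49, DNAJB6 by 0.58 and 0.44, and HSP90AA1 by 0.48 and 0.40. The outer membrane list held the SAM and metaxin insertion genes and the porins, with 4 up and 1 down of 11 in INA6 (median 0.07), and 2 up and 3 down in JJN3 (median 0.00), near those shares. The porin gene VDAC3 rose by 0.20 and 0.25, VDAC2 by 0.28 in INA6 and was at −0.01 in JJN3 (adjusted p = 0.932), and the metaxin MTX3 fell by 0.27 in JJN3. VDAC3 was at 0.13 in INA6 and 0.16 in JJN3 with the level trend removed.

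The counts of the next lists are to be read against the same shares of all genes. Import into the intermembrane space by disulfide relay gave 3 up and 0 down of 5 in INA6 (median 0.14) and 0 up and 2 down in JJN3 (median 0.01). GFER, the oxidase of the relay, was at 0.17 in INA6, a call lost under 9 of 13 alternatives (adjusted p 0.000342 to 0.217, the highest without knockdown replicate 3, 0.09), and fell by 0.30 in JJN3. CHCHD4, its import receptor, rose by 0.19 in INA6 (adjusted p = 0.00794). CHCHD2 was at 0.14 there, and at 0.04 with the level trend removed (adjusted p = 0.444; range 0.0014 to 0.444). Other genes of inner membrane import and insertion gave 3 up and 1 down of 8 in INA6 and 2 up and 1 down in JJN3: GRPEL2, the paralogue of GRPEL1, rose by 0.27 and 0.17, ROMO1 by 0.28 in INA6 with overlapping groups, and COX18, an insertase, fell by 0.21 and 0.20. The GRPEL2 rise in JJN3 was lost without control replicate 1 (0.13, adjusted p = 0.0646; range 0.00168 to 0.0646). Presequence processing and peptide clearance gave 1 up and 1 down of 6 in INA6 and 1 up and 2 down in JJN3. NLN was at 0.14 and 0.17, XPNPEP3 at −0.18 in INA6 and IMMP2L at −0.15 in JJN3. The NLN call in INA6 was lost under 6 of 13 alternatives, and the IMMP2L call in JJN3 under 5 of 12. Other chaperones and folding factors gave 3 up and 1 down of 7, and 2 up and 2 down, with the peptidyl-prolyl isomerase PPIF at 0.41 and 0.32, the complex III assembly factor BCS1L at 0.26 and 0.43 and the ATP synthase assembly factor ATPAF1 at −0.28 in JJN3. Other proteases and prohibitins gave 4 up and 2 down of 10, and 2 up and 2 down, with the prohibitin gene PHB at 0.42 and 0.19, the rhomboid protease PARL at 0.30 in INA6 and LACTB at −0.24 and −0.22. PHB in JJN3 was at 0.11 with the level trend removed.

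Regulators were measured as well, and their counts stand beside the same shares of all genes: 24.7% rising and 24.0% falling in INA6, 25.5% and 25.5% in JJN3. In mitochondrial stress signalling 2 rose and 2 fell of 12 in INA6 (median 0.04), and 7 rose and 4 fell in JJN3 (median 0.12). ATF5, a transcription factor linked to the mitochondrial unfolded protein response, rose by 1.04 in INA6 (SE 0.0507) and 0.70 in JJN3 (SE 0.0493), and CHAC1, a target of ATF4, by 0.34 and 0.50. SESN2 rose by 0.44 in JJN3 and was at −0.09 in INA6 (adjusted p = 0.118), where it was called lower with quantile normalisation (−0.14, 0.0219) and with the level trend removed (−0.16, 0.0081; range 0.0081 to 0.386). Of 13 regulators of mitochondrial biogenesis 8 rose and 1 fell in INA6 (median 0.17), and 7 rose and 1 fell in JJN3 (median 0.14). The regulator that fell was MYC in both lines, by 0.52 and 0.40. The coactivators PPRC1 and PPARGC1B rose by 0.58 and 0.45 in INA6 and by 0.22 and 0.22 in JJN3, PPRC1 in JJN3 being at 0.12 with quantile normalisation. Of 9 genes of the NSL complex, to which KANSL2 belongs, 3 rose and 4 fell in INA6, and 3 rose and 3 fell in JJN3. Those that fell include KANSL2, the repressed gene itself. HCFC1 rose by 0.41 in INA6 and 0.18 in JJN3, and WDR5 by 0.17 and 0.24. The HCFC1 call in JJN3 was lost under 2 of 13 alternatives, and the WDR5 call in INA6 under 5 of 13.

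**Figure D4:**
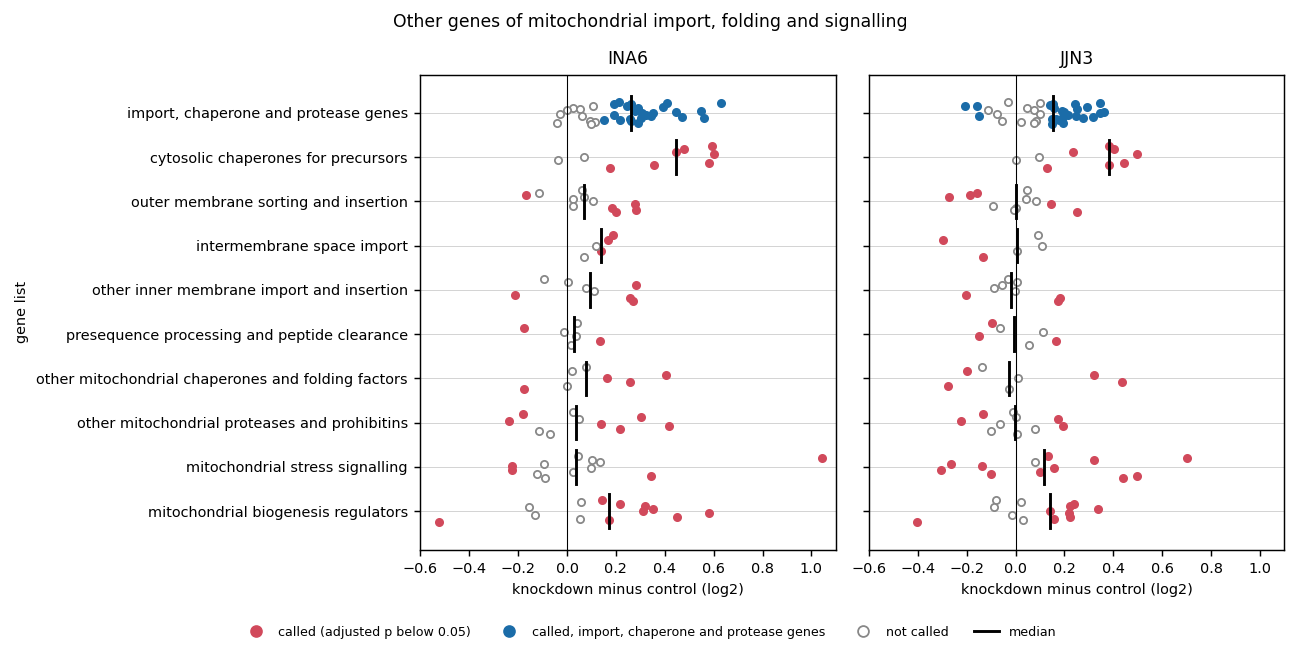
Change after knockdown (log2) of each tested gene in the lists of the import pathway and its regulators, below the import, chaperone and protease genes; filled points passed adjusted p below 0.05, open points did not, and bars are medians. Cytosolic chaperones have the highest medians, 0.45 in INA6 and 0.38 in JJN3, and ATF5 is the point farthest to the right in each line.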

How the data were processed

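RNA of 12 libraries was analysed from 2 tables, 1 per cell line. The submitters' processing notes name DESeq2, HTSeq, Bowtie2, Trim Galore and the hg38 build; versions, settings and annotation are not given in the sources used here. The deposited values are the authors' log2-scale rlog expression, scaled within each table, which understates changes of low genes; levels were not compared between tables or genes. Groups came from the labels. Within each line, knockdown and control were compared with limma 3.58.1 in R 4.3.3 (eBayes with a mean-variance trend, mean rlog of at least 3, no block), with Benjamini-Hochberg adjustment over all tested genes and a threshold of 0.05. The lines' changes were compared by their difference over the root of the summed squared standard errors of the 2 fits. Its p-values came from a t distribution with summed degrees of freedom and were adjusted over 11137 genes. The fits were tested on simulated data with 200 changed genes and independent normal noise. They recovered 47% (INA6) and 56% (JJN3) of changes of 0.25, and 93% and 97% of changes of 0.5. There were 7 false calls in each line. In the simulation, changes of 0.25 were thus often missed. In the real data far more genes were called, 48.6% in INA6 and 51.0% in JJN3. This makes the adjusted threshold less strict, so the simulated recovery rates do not carry over to the real data. Smaller changes were called there, such as that of PMPCA in JJN3 (0.18, adjusted p = 0.000839).

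The members and lists were chosen with earlier results of these data known. Library values were given for up to 4 members per role with the smallest adjusted p, every member that fell, and some others; other lists name up to 3 genes by smallest adjusted p. Alternatives were median centring, quantile normalisation, no filter, a minimum of 5, no variance trend, a replicate block, a loess removal of the trend of change with level (span 0.3) and leaving out each library. Promoter windows came from RefSeq on GRCh38.p14.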

Additional observations from a re-analysis of the deposited data

Results flagged for a closer look

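For 10 members the change after knockdown differed between the lines by a test of the difference itself, each with the INA6 change above the JJN3 change. The differences (INA6 minus JJN3, log2) were 0.47 for TIMM50, 0.45 for TOMM40L, 0.31 for TOMM22, 0.29 for HSPD1, 0.28 for TOMM40 and 0.24 for TOMM20. They were 0.26 for TOMM7, 0.22 for TIMM10, 0.21 for TIMM29 and 0.15 for HSPA9. Adjusted p-values from the limma fits ran from 9.9e-07 to 0.04. As 30.0% of all genes differed in this way, the number of members that did is near the background.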

How the results depend on the processing

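No member call in either line, and no called difference between lines, reversed under the alternatives run. Of 26 calls in INA6, 25 were made under every alternative, of 24 in JJN3, 16, and of 10 differences between lines, 6. Leaving out 1 library gave 25 to 28 called members in INA6, all higher, and 22 to 24 in JJN3, with 19 to 22 higher and 1 to 4 lower. It gave 7 to 11 differences between lines. The 1 lower member came without JJN3 knockdown replicate 1. The members with lost calls are named above, with values for part of the alternatives. A difference between lines was gained for LONP1 under 5 of 19 alternatives. For TOMM70 and TOMM6 it was gained with quantile normalisation alone. Quantile normalisation and removal of the level trend took away TOMM70, TOMM6 and YME1L1 in JJN3 and PMPCA in INA6; the cause was not tested.

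Replicate numbers did not pair the samples: same-numbered libraries had correlations of their deviations of −0.30 to −0.07 in INA6 and −0.01 to 0.005 in JJN3, and 0 of 3 controls in each line matched their own number best. With the replicate block, 26 members were called in INA6, 24 in JJN3 and 9 differences between lines. Precision rests on 3 libraries per group, and depth is unknown.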
